A study of Homo sapiens with 2 samples.

Results

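The cytosines described here lie in the mitochondrial mRNAs that encode cytochrome c oxidase subunits (COX1, COX2 and COX3), ATP synthase subunits (ATP8/ATP6) and cytochrome b (CYTB). They were measured by RNA BS-Seq in human mammary cell lines, with 1 library of MCF10A, an epithelial line from non-cancerous breast, and 1 of MDA-MB-468, a line from breast cancer, without replicates. The RNA was selected by its poly(A) tail and exposed to bisulfite at 60 degrees for 8 hours, so that unmodified cytosine is read as T (converted) and 5-methylcytosine (m5C) is read as C (unconverted). Unmodified cytosine can also stay unconverted, and the study's methods name RNA secondary structure as a source of such false positives. No structure filter was applied here. The terms m5C site and methylation therefore stand for unconverted counts, whose origin was not tested. The labels give DMEM as the medium of both lines, but the study's methods give different media, with horse serum and growth factors for MCF10A and RPMI with FBS for MDA-MB-468. The cell line and its culture medium therefore cannot be told apart. Members were chosen by position: plus-strand cytosines of the mitochondrial chromosome inside the windows of the 5 mRNAs (5907 to 7444 for COX1, 7589 to 8268 for COX2, 8369 to 9206 for ATP8/ATP6, 9210 to 9987 for COX3 and 14750 to 15880 for CYTB, in the hg19 chrM numbering of the deposited data) with a coverage of at least 10. Coverage is the sum of unconverted and converted counts at a site, and the methylation ratio is the unconverted count over the coverage. This gave 691 sites in MCF10A against 559 in MDA-MB-468, out of 1584002 and 1271253 sites kept in the whole libraries, and 3085 and 2554 on the mitochondrial chromosome. Of the 723 sites present in either library, 527 were present in both. The members' coverage had a median of 49 in each line, against 18 over all kept sites.

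Mitochondrial DNA is transcribed as long precursors that are cut at the tRNAs between the coding genes, and the released mRNAs are polyadenylated in the organelle. COX1, COX2 and COX3 form the catalytic core of complex IV, which passes electrons from cytochrome c to oxygen. ATP6 and ATP8 belong to the membrane part of ATP synthase and are read from overlapping frames of a shared mRNA. CYTB is the mitochondrially encoded subunit of complex III. In mitochondrial RNA, m5C is best known from tRNA and rRNA. Copies of mitochondrial DNA are also present in the nuclear genome.

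The positions were tied to sequence by setting each mRNA of GENCODE release 44 (on GRCh37) against the pattern of deposited positions. All 168 deposited positions in the COX1 mRNA (MT-CO1), all 98 in COX2 (MT-CO2), all 63 in ATP6 (MT-ATP6) and all 342 in CYTB (MT-CYB) fell on a cytosine, as did 199 of 200 in COX3 (MT-CO3). The exception was position 9541, where 12 of 26 counts were unconverted in MCF10A against 6 of 22 in MDA-MB-468. The part of the ATP8 mRNA that it does not share with ATP6 is 161 nt long with 55 cytosines. In the libraries 0 of these were listed, and the deposited counts start at a coverage of 5. Every member of the ATP8/ATP6 window therefore lies in ATP6. 

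The stretches below are those around the sites with the highest methylation ratio in both lines among those covered by 20 or more reads in both, around an edge in ATP6 where the ratio changes, and around deeply covered sites with low ratios. Each runs 5′ to 3′ on the plus strand with the named site at its centre. Capitals mark cytosines called as m5C sites in both lines by the test described with the counts of calls, and lower-case c marks the others.
COX1 site 6585, chrM:6571-6599: gCCggaggaggagaCCCCattCtataCCa
COX1 site 6374, chrM:6360-6388: agcaggtgtctcctctatcttaggggCCa
COX2 site 7892, chrM:7878-7906: aaatCaattggCCaCCaatggtaCtgaaC
COX2 site 8138, chrM:8124-8152: aaccaaaccactttcaccgctacacgacc
ATP6 site 8677, chrM:8663-8691: CaaCaatgaCtaatCaaaCtaaCCtCaaa
ATP6 site 8713, chrM:8699-8727: ataaCCataCaCaaCaCtaaaggacgaac
COX3 site 9760, chrM:9746-9774: agtaCttCgagtCtCCCttCaCCatttCC
COX3 site 9955, chrM:9941-9969: tagatgtggtttgactatttctgtatgtc
CYTB site 15638, chrM:15624-15652: gCCCtattaCtatCCatCCtCatCCtagC
CYTB site 15143, chrM:15129-15157: ttcataggctatgtcctcccgtgaggcca
The stretches around COX1 site 6585, COX2 site 7892, ATP6 site 8677, COX3 site 9760 and CYTB site 15638 had all of their cytosines called in both lines. Around the higher-ranked sites, which are not shown, this was 6 of 7 cytosines at COX2 site 7890 and 9 of 10 at COX3 site 9743. At COX1 site 6586 and CYTB site 15637 it was all 9 and all 11. The stretches around COX2 site 8138, COX3 site 9955 and CYTB site 15143 had none called in both. In the ATP6 stretch around site 8713 the capitals stop partway, and the 2 cytosines after that point were not called in both lines.

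Each site was tested against the background nonconversion rate of its library by Fisher's exact test (one-sided), with Benjamini-Hochberg adjustment over all kept sites. The background was 1.991% in MCF10A against 1.81% in MDA-MB-468. Among the COX, ATP and CYTB sites 357 of 691 (51.7%) were m5C sites at FDR 0.05 in MCF10A, where 0.96% of all kept sites and 56.8% of kept mitochondrial sites were called. In MDA-MB-468 231 of 559 (41.3%) were called, against 0.84% of all kept sites and 49.6% of mitochondrial sites. The share called among these mRNAs was thus far above that of the whole libraries and below that of the mitochondrial chromosome. The summed methylation level, all unconverted counts over all counts, was 7.439% in MCF10A (95% Wilson interval 7.276% to 7.607%) against 4.723% in MDA-MB-468 (4.586% to 4.863%). The median ratio over sites was 15.09% and 7.463%. A ratio of 50% or more was found at 171 sites (24.7%) in MCF10A and 118 sites (21.1%) in MDA-MB-468. These and the other intervals cover counting error only, and they are too narrow because neighbouring sites share reads. With the background taken from mitochondrial sites alone, the counts of calls were 164 in MCF10A (23.7%) and 149 in the other library (26.7%). The order of the libraries turned when the sites kept in both lines were thinned to equal coverage. Before thinning, 201 of these 527 sites were called in both lines, 39 in MCF10A only and 6 in MDA-MB-468 only. With each site thinned to the lower of its coverages, a median of 193 sites was called in MCF10A (190 to 194 over the draws) and 199 in MDA-MB-468 (196 to 200). The background and the adjustment were then taken from the thinned sites, so they changed as well.

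In each line the fewest unconverted counts seen at a called site with a coverage of 10 were 4, which is a ratio of 40%. At a coverage of 100 the fewest seen were 9 in MCF10A against 10 in MDA-MB-468, so low ratios were called only at deep sites. No unconverted read was seen at 42 sites in MCF10A against 32 in MDA-MB-468, and a count of 0 allows a share of up to 27.3% at the least covered of these sites in MCF10A against 30% in MDA-MB-468.

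**Figure D1:**
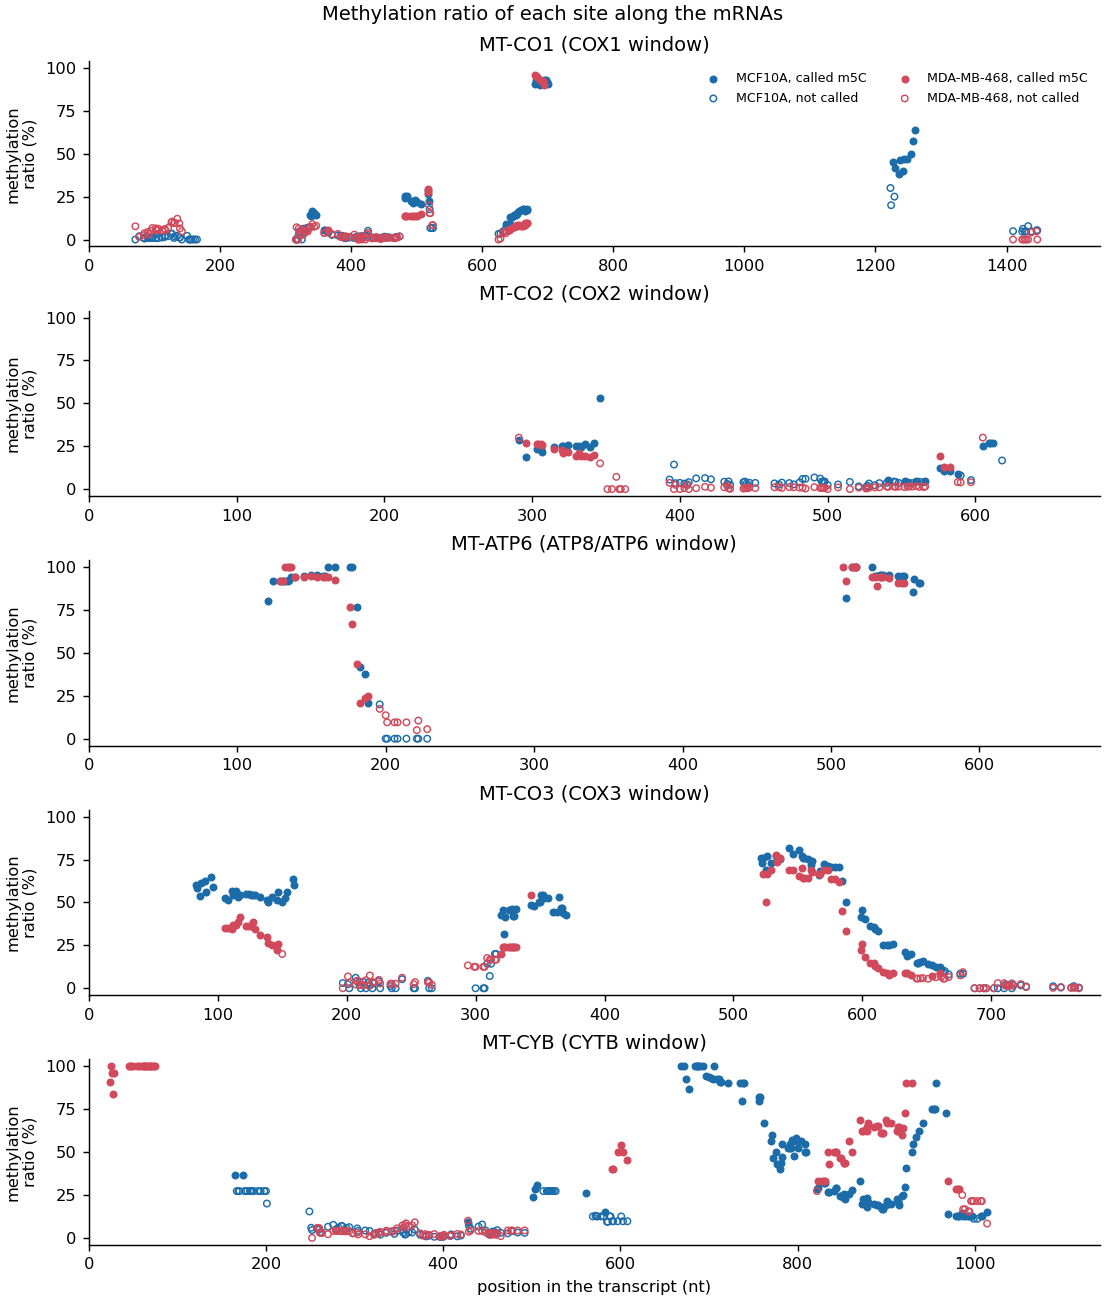
Methylation ratio (%, y axis) of each kept site against its position in the mRNA (nt, x axis), with 1 panel per mRNA. Filled points are called m5C sites and open points are not called, blue for MCF10A and red for MDA-MB-468. Sites with similar ratios form runs, such as the ATP6 sites near 100% in both lines, and the gaps are stretches where no site was kept.

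COX1, the subunit that carries the oxygen-reducing centre of complex IV, had the largest number of counts in MCF10A. In MCF10A 159 of its 463 cytosines were kept and 58 were called, with a level of 3.704% (95% Wilson interval 3.545% to 3.869%). In MDA-MB-468 136 cytosines were kept and 34 called, with a level of 3.705% (3.479% to 3.946%). These summed levels could not be told apart, but islands of the mRNA, runs of kept sites with gaps of at most 30 nt, differed in opposite directions. From 5975 to 6069 the level was 1.513% in MCF10A (1.195% to 1.914%) and 5.879% in MDA-MB-468 (4.888% to 7.056%), with no site called in either. Between positions 6220 and 6429, 74 sites had a level of 1.881% in MCF10A against 1.899% in MDA-MB-468, with single sites of up to 28.57% and 29.41%. This island holds the most deeply covered COX1 site. At that site, 6374, 23 of 1476 counts were unconverted in MCF10A (1.558%) against 7 of 628 in MDA-MB-468 (1.115%), and neither was called. The highest ratios lay in a run further along the mRNA. At site 6585, 39 of 43 counts were unconverted in MCF10A (90.7%, 95% Wilson interval 78.4% to 96.32%) against 22 of 23 in MDA-MB-468 (95.65%, 79.01% to 99.23%). At the next base, 6586, 39 of 42 were unconverted in MCF10A (92.86%) against 21 of 22 in MDA-MB-468 (95.45%). This run reached from 6585 to 6604 in MCF10A with 10 cytosines at a median ratio of 92.31%, and from 6585 to 6598 in MDA-MB-468 with 7 cytosines at 94.74%. A further 13 sites between 7127 and 7164 had a level of 43.03% in MCF10A (35.72% to 50.66%). In MDA-MB-468 only 4 of the positions in that stretch were listed, at a coverage of 5, with 5 of 20 counts unconverted.

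The run in COX1 starts where nearly all converted counts end. At site 6573, just before it, MCF10A had 48 unconverted and 220 converted counts. At site 6585 it had 39 unconverted and 4 converted counts. In MDA-MB-468 the counts were 25 unconverted and 237 converted at 6573, and 22 unconverted and 1 converted at 6585. The unconverted count changed little across the 12 nt, and the ratio changed with the converted count. In the whole island, from 6529 to 6604, 29 of 32 sites were called in MCF10A against 23 of 29 in MDA-MB-468. Its level was 17.24% in MCF10A (16.29% to 18.24%) against 8.835% in MDA-MB-468 (8.117% to 9.609%).

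COX2, which receives the electrons from cytochrome c, had no run of ratios near 100%. In MCF10A 83 of 214 cytosines were kept and 29 called, with a level of 5.824% (5.458% to 6.213%). In MDA-MB-468 85 were kept and 18 called, with a level of 1.565% (1.454% to 1.683%), below the background of that library. The highest ratio was 52.94% in MCF10A against 30% in MDA-MB-468, so no COX2 site reached the ratios of the COX1 run. At site 7890, 20 of 78 counts were unconverted in MCF10A (25.64%, 17.26% to 36.31%) against 13 of 50 in MDA-MB-468 (26%, 15.87% to 39.55%). At site 7892 they were 18 of 77 in MCF10A (23.38%) against 13 of 50 in MDA-MB-468 (26%). At both sites the intervals of the libraries overlapped. The most deeply covered COX2 site, 8152, had 23 of 493 counts unconverted in MCF10A (4.665%, adjusted p = 0.0222) against 25 of 1616 in MDA-MB-468 (1.547%, adjusted p = 1), by one-sided Fisher's exact tests.

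COX3, the remaining core subunit of complex IV, had a larger share of called sites than COX1 and COX2, 65.2% and 51.4% in the libraries. In MCF10A 164 of 248 cytosines were kept and 107 called, with a level of 24.66% (23.73% to 25.62%) and a median ratio of 42.31%. In MDA-MB-468 138 were kept and 71 called, with a level of 10.31% (9.727% to 10.92%) and a median ratio of 12.5%. Near its start, from 9290 to 9366, all 31 sites were called in MCF10A at a level of 54.58% (51.44% to 57.69%), and 18 of 19 in MDA-MB-468 at 33.72% (30.07% to 37.57%). By the lower of the 2 ratios at a coverage of at least 20 in both lines, the highest sites were 9743, with 34 of 45 counts unconverted in MCF10A (75.56%, 61.33% to 85.76%) against 16 of 21 in MDA-MB-468 (76.19%, 54.91% to 89.37%), and 9760, with 41 of 53 (77.36%) and 21 of 30 (70%). Towards the end of the mRNA the ratios were low in both lines. At site 9955, the most deeply covered, 3 of 249 counts were unconverted in MCF10A (1.205%) against 1 of 420 in MDA-MB-468 (0.2381%).

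ATP6, which forms part of the proton path of ATP synthase, had the highest level of the 5 mRNAs in each library. In MCF10A 49 of the 230 cytosines of its window were kept and 40 called, with a level of 72.48% (69.29% to 75.45%) and a median ratio of 92.86%. In MDA-MB-468 44 were kept and 35 called, with a level of 64.54% (61.01% to 67.91%) and a median ratio of 91.99%. With a coverage of at least 20, 14 sites at 81.08% were left in MCF10A and 11 sites at 21.49% in MDA-MB-468. The coverage was also the lowest of the 5 mRNAs, from 10 to 24 in MCF10A and from 11 to 25 in MDA-MB-468. At site 8677, 22 of 23 counts were unconverted in MCF10A (95.65%, 79.01% to 99.23%) against 19 of 20 in MDA-MB-468 (95%, 76.39% to 99.11%). From 9035 to 9087 every kept site was called, 18 in MCF10A at a level of 94.63% (91.46% to 96.67%) and 15 in MDA-MB-468 at 94.42% (90.5% to 96.78%). The other island, from 8648 to 8755, changes within a few bases. At site 8704 MCF10A had 11 unconverted and 0 converted counts, and MDA-MB-468 had 8 and 4. At site 8713 MCF10A had 9 of 24 counts unconverted (37.5%, 21.16% to 57.29%) and MDA-MB-468 had 6 of 25 (24%, 11.5% to 43.43%). From 8727 to 8755 all 8 sites of MCF10A had 0 unconverted counts at a coverage of 15 to 16, which allows a share of up to 20% at a coverage of 15.

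CYTB had the largest number of kept sites, and in each library those with the highest ratios lay where the other library had no kept site. In MCF10A 236 of 389 cytosines were kept and 123 called, with a level of 8.778% (8.401% to 9.17%). In MDA-MB-468 156 were kept and 73 called, with a level of 12.56% (11.88% to 13.27%). This order turned at a coverage of at least 20, where the level was 6.234% in MCF10A and 5.911% in the other library. From 14996 to 15274 the level was 2.806% over 84 sites in MCF10A and 2.713% over 70 sites in MDA-MB-468, but the 12 thinly covered MCF10A sites from 15248 to 15274 had ratios of 23.53% to 30.77%. The most deeply covered site of this island, 15143, had 3 of 485 counts unconverted in MCF10A (0.6186%) against 2 of 230 in MDA-MB-468 (0.8696%). From 14771 to 14822 all 23 sites of MDA-MB-468 were called, at a level of 98.49% (96.91% to 99.27%). MCF10A listed 12 positions there at a coverage of 5 to 6, too low to be kept, with 68 of 69 counts unconverted. MCF10A had such a run from 15416 to 15518, with 30 cytosines at a median ratio of 92.31%, where MDA-MB-468 had no kept site. From 14912 to 14948 MCF10A had 17 sites at 27.96% (22% to 34.8%), and MDA-MB-468 listed 17 positions at a coverage of 5 to 7 with 1 of 113 counts unconverted. By the lower of the 2 ratios at a coverage of at least 20 in both lines, the highest sites were 15637, with 12 of 62 counts unconverted in MCF10A (19.35%) against 13 of 20 in MDA-MB-468 (65%), and 15638, with 12 of 63 (19.05%) and 13 of 20 (65%).

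**Figure D2:**
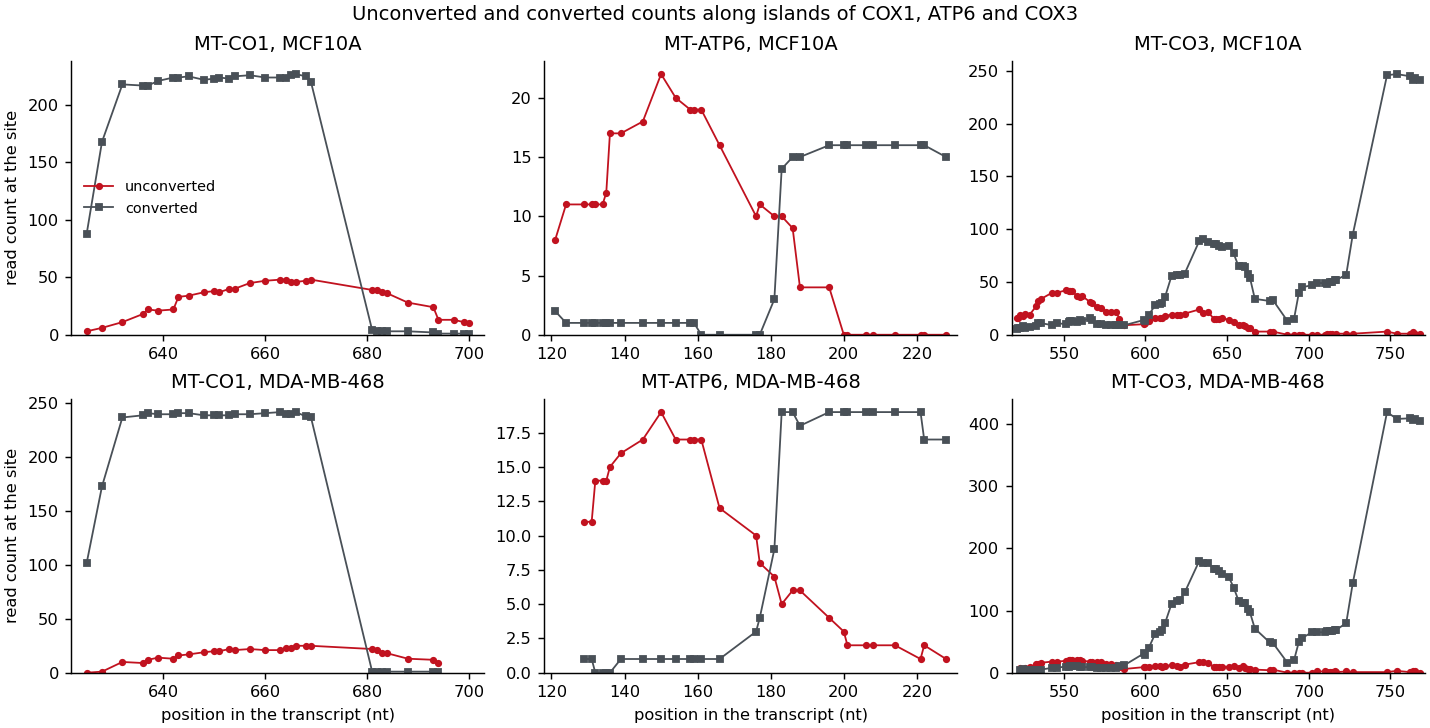
Unconverted (red circles) and converted (grey squares) read counts at each kept site (y axis, linear, a separate scale in each panel) against position in the mRNA (nt, x axis) for an island of COX1, ATP6 and COX3, with MCF10A in the upper row and MDA-MB-468 in the lower. In COX1 the converted counts go from 220 to 4 in MCF10A and from 237 to 1 in MDA-MB-468 between neighbouring sites, while the unconverted counts go on.

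The unconverted count hardly followed the depth of a site, whereas the converted count did. With the sites split by coverage into 10 to 19, 20 to 49, 50 to 199 and at least 200, the median unconverted counts in MCF10A were 7, 11, 7 and 9. The median converted counts were 7, 21, 61 and 263.5. In MDA-MB-468 the median unconverted counts were 8, 6, 3 and 6, and the median converted counts were 6, 22, 87 and 407.5. The median ratio was accordingly 50%, 41.67%, 9.182% and 2.356% in MCF10A, and 55.4%, 22.5%, 3.922% and 1.321% in MDA-MB-468. Among sites with a coverage of at least 200 the highest ratio was 17.91% in MCF10A against 9.542% in MDA-MB-468. A ratio of 50% or more occurred at a coverage of up to 54 in MCF10A against 31 in MDA-MB-468. Across sites, the Spearman correlation of coverage with the ratio was -0.649 over 691 sites in MCF10A and -0.7043 over 559 in MDA-MB-468. That of coverage with the unconverted count was 0.1577 and -0.001833. The ratio holds the coverage as its denominator and the sites share reads, so these correlations are descriptions.

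**Figure D3:**
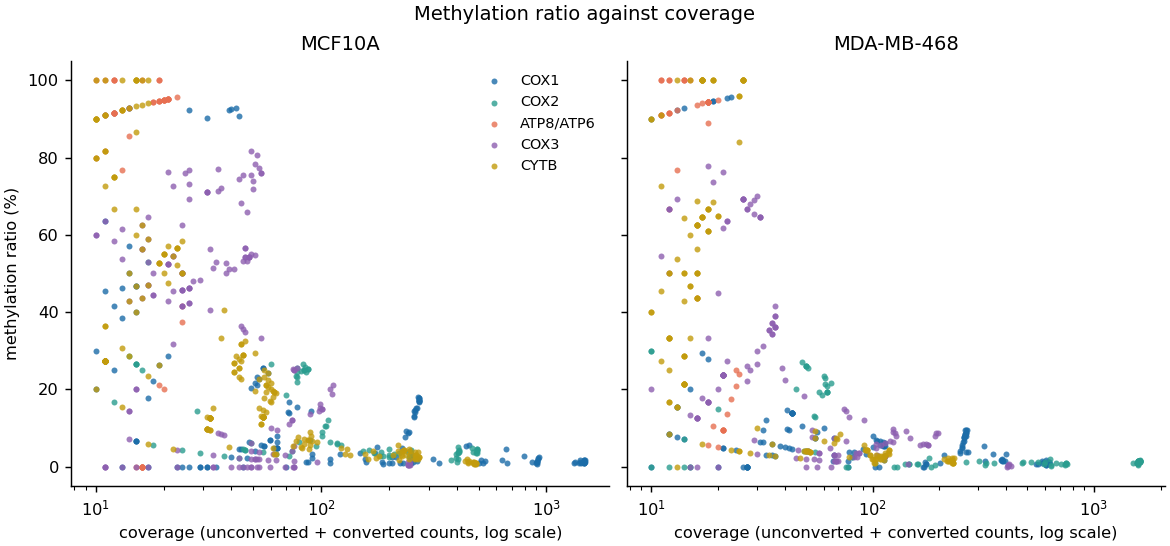
Methylation ratio (%, y axis) against coverage (unconverted plus converted counts, logarithmic x axis) for each kept site, coloured by mRNA, in MCF10A (left) and MDA-MB-468 (right). Ratios of 50% or more stop at a coverage of 54 in MCF10A against 31 in MDA-MB-468, and the ATP6 sites all lie at the left.

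The same was seen from site to site. Of 676 pairs of neighbouring sites within islands in MCF10A, coverage differed by at least 2-fold in 22, and in each of the 22 the converted count changed by more than the unconverted count. The median change was 134 converted and 3.5 unconverted counts. In MDA-MB-468 this held for all 23 such pairs of 545, with median changes of 43 converted and 2 unconverted counts. Converted counts were also the larger ones at most deeply covered sites. At a coverage of 10 to 19 the median ratio in MCF10A was 91.67% over 35 ATP6 sites, 52.63% over 79 CYTB sites, 45.75% over 30 COX3 sites, 40% over 25 COX1 sites and 26.67% over 8 COX2 sites. In MDA-MB-468 it was 94.44% over 33 ATP6 sites, 50% over 77 CYTB sites, 20% over 15 COX1 sites, 16.67% over 21 COX3 sites and 0% over 8 COX2 sites. ATP6 came first and CYTB second in this class, but not in the next. At a coverage of 20 to 49 the order in MCF10A was ATP6 (95%), COX3 (50%), CYTB (26.83%), COX2 (4.348%) and COX1 (3.522%). In MDA-MB-468 it was CYTB (65%), COX3 (35.29%), COX2 (17.5%), ATP6 (13.64%) and COX1 (5.489%).

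The cytosines without measurements were set against nuclear copies of these genes. GRCh37 holds a copy of the full COX1 mRNA on chromosome 1 (566454 to 567996) at 98.64% identity, with COX2 (568137 to 568818) at 97.95% and ATP6 (569076 to 569756) at 98.53% next to it. For COX3 (chromosome 5, 99386838 to 99387621) and CYTB (chromosome 5, 93905245 to 93906385) the copies with the highest alignment score were less similar, at 87.52% and 85.98%. Other copies can be closer over parts of these mRNAs. For each of the 1544 cytosines of the windows the 101 nt around it were compared with the nuclear copies, with C and T read as the same letter as after conversion. For 467 of them some copy had no difference, 253 in COX1, 98 in COX2, 98 in ATP6, 10 in COX3 and 8 in CYTB. In COX3 a further 122 of the 248 cytosines had a copy with 1 difference, and in CYTB 28 of 389. Of the 467 without a difference, 0 were listed in either library, where the deposited counts start at a coverage of 5. With 1 difference 51.4% of 481 cytosines were kept sites in MCF10A against 46.6% in MDA-MB-468. With 2 differences these shares were 71.5% and 61.1%, and with 3 to 4 they were 62.7% and 47.3%. With 5 or more differences 86.9% of 206 were kept in MCF10A against 57.8% in MDA-MB-468. The shares did not rise steadily with the number of differences. The members among these cytosines therefore all lie outside the stretches that a nuclear copy matches without a difference. They are only a part of the cytosines there. The levels of COX1, COX2 and ATP6 in particular describe 34.3%, 38.8% and 21.3% of their cytosines in MCF10A. Whether reads from nuclear copies are among the counts was not tested.

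Neighbouring sites had nearly the same ratio. For pairs of members 1 to 3 nt apart the Pearson correlation of the ratios was 0.9877 over 665 pairs in MCF10A and 0.9941 over 525 in MDA-MB-468, with a median absolute difference of 1.048 and 0.5098 percentage points. At 4 to 10 nt it was 0.9715 and 0.9824, and at 11 to 30 nt 0.8446 and 0.8595. Pairs share reads and are not independent. Of the called sites 353 of 357 in MCF10A, as well as 230 of 231 in MDA-MB-468, had another called site within 10 nt. Kept sites lie close together, with 1444 pairs at 4 to 10 nt among the 691 sites of MCF10A, of which 51.7% were called. Many called sites would thus have a called neighbour by density alone. The share expected from density was not computed, so no conclusion is drawn from these counts. Stretches with every cytosine called in both lines did occur, such as the 11 cytosines around COX3 site 9760.

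By the base after the cytosine, the share called in MCF10A was 55.6% before A, 54% before C, 50.7% before G and 45.1% before T. In MDA-MB-468 it was 46.4%, 45.5%, 38.3% and 32.9%. Sites before A and C also had lower median coverage than those before G and T, 39.5 and 44.5 against 55 and 55 in MCF10A. By codon position the share was 49.7%, 49% and 54.3% in MCF10A and 39.9%, 39.1% and 43.3% in MDA-MB-468, from the first to the last base. The transcripts were folded at 70 degrees with a pairing distance of up to 150 nt. Members predicted to be paired were 27 in MCF10A, of which 7 (25.9%) were called, against 52.6% of 663 unpaired members. In MDA-MB-468 3 of 21 (14.3%) were called, against 42.3% of 537. Paired members had a median coverage of 180 in MCF10A against 103 in MDA-MB-468, and unpaired members 48 and 47. The part of coverage in these shares was not tested. 

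The libraries were compared at the 527 sites kept in both. There 201 sites were called in both lines, which is 83.8% of the MCF10A calls and 97.1% of the MDA-MB-468 calls at these sites. The ratios had a Pearson correlation of 0.9727 over 136 COX1 sites, 0.8652 over 79 COX2 sites, 0.9651 over 43 ATP6 sites, 0.938 over 136 COX3 sites and 0.8559 over 133 CYTB sites. The ratio was higher in MCF10A at 304 sites, higher in MDA-MB-468 at 210 and equal at 13. The direction differed between mRNAs. In COX2 69 of 79 sites and in COX3 95 of 136 sites were higher in MCF10A, whereas in CYTB 96 of 133 were higher in MDA-MB-468. The median difference was 2.749 percentage points in COX2, 4.31 in COX3 and 0.4661 in COX1 towards MCF10A, and in CYTB it was -1.635 (MCF10A minus MDA-MB-468). These are descriptions of 2 libraries whose neighbouring sites share reads.

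**Figure D4:**
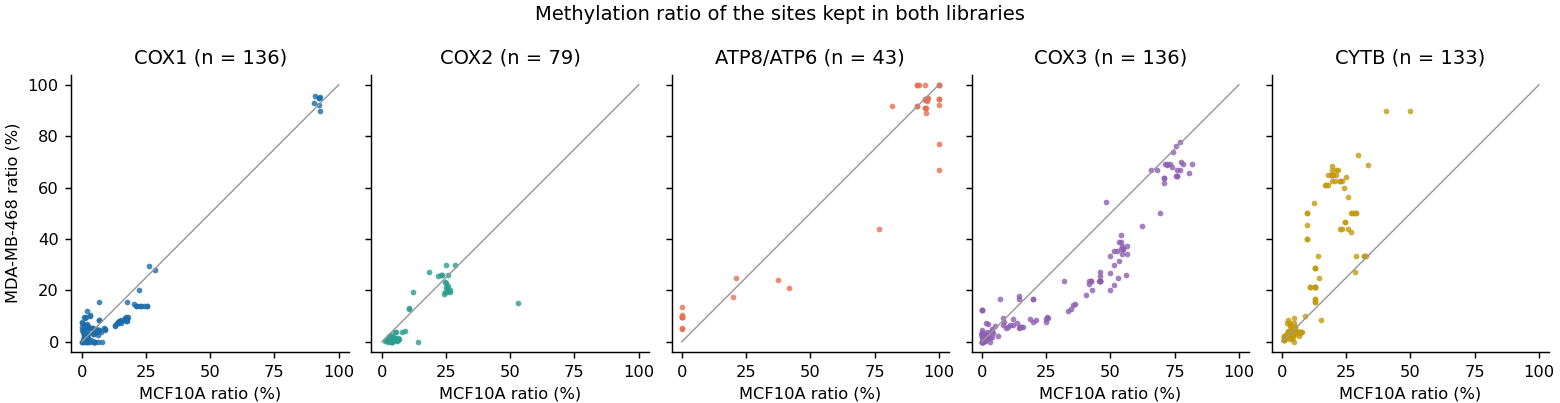
Methylation ratio (%) in MCF10A (x axis) and MDA-MB-468 (y axis) of the sites kept in both libraries, with 1 panel per mRNA and the line of equal ratios in grey. Most COX2 and COX3 points lie below the line, and CYTB points with a ratio over 40% in MDA-MB-468 lie above it.

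By Fisher's exact test (two-sided) at each site, adjusted over all 812729 sites kept in both libraries, 3 of the 527 sites differed, against 0.0893% of all sites and 3.14% of mitochondrial sites. Each of the 3 was a COX2 site that was higher in MCF10A, a direction found at 0.0691% of all sites and 1.42% of mitochondrial sites. No site was higher in MDA-MB-468, a direction found at 0.0202% of all sites and 1.72% of mitochondrial sites. At 8138, 22 of 465 counts were unconverted in MCF10A (4.731%) against 18 of 1606 in MDA-MB-468 (1.121%, adjusted p = 0.00911, Fisher's exact test). At 8127 they were 21 of 406 (5.172%) and 21 of 1573 (1.335%, adjusted p = 0.0205, Fisher's exact test). At 8029 they were 10 of 248 (4.032%) and 2 of 738 (0.271%, adjusted p = 0.0405, Fisher's exact test). The unconverted counts at 8127 and 8138 were close in the libraries, and the converted counts were not. With an unadjusted p below 0.05 there were 117 sites, 74 higher in MCF10A and 43 higher in MDA-MB-468. Of these, 39 in COX2 and 20 in COX3 were higher in MCF10A with none the other way, 32 in CYTB were higher in MDA-MB-468 with none the other way, and COX1 had 15 and 11. The share of all sites below this unadjusted threshold is not given here. Neighbouring sites share reads, so these counts are not separate observations and no conclusion is drawn from them. All 3 sites differed by less than 10 percentage points. The sites were also tested against the odds ratio pooled over mitochondrial sites, 2.014 for MCF10A over MDA-MB-468. Then 16 sites passed with an odds ratio below 2.014 and 0 with one above it. A site below 2.014 need not have the higher ratio in MDA-MB-468. The adjustment was again over all 812729 sites, nuclear ones included. The test compares these libraries and not the cell lines, for which there are no replicates.

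Larger differences at thinner sites did not pass the adjusted threshold. Between MCF10A and MDA-MB-468 they reached 37.94 percentage points in COX2 and -49.46 in CYTB. At CYTB sites 15637 and 15638 the difference was -45.65 and -45.95 percentage points (Fisher's exact test, adjusted p = 0.343 and 0.193). At the 63 COX2 sites with a coverage of at least 50 in both lines the median unconverted count was 11 in each, while the median converted count was 177 in MCF10A against 552 in MDA-MB-468. Of these sites 56 had the higher ratio in MCF10A.

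**Figure D5:**
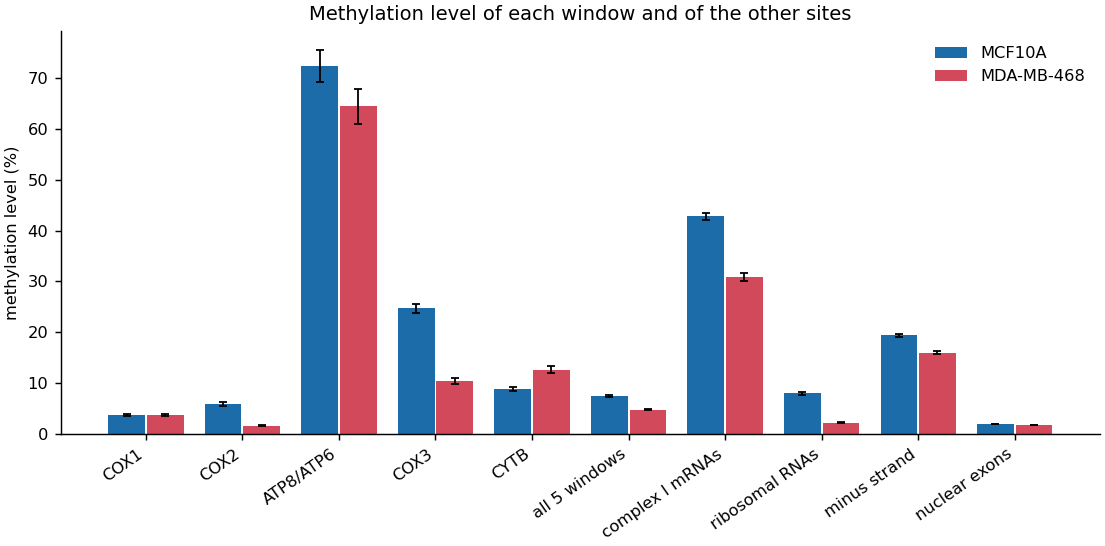
Methylation level (unconverted counts over all counts, %, y axis from 0) of each mRNA window, of the 5 together and of other kept sites (x axis), in MCF10A (blue) and MDA-MB-468 (red), with bars for the 95% Wilson intervals, which cover counting error only. ATP8/ATP6 is the highest of the windows in each library and COX1 and COX2 are the lowest.

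Beside the other mitochondrial RNAs, the 5 mRNAs had a level below that of the complex I mRNAs, which encode the NADH dehydrogenase subunits and reached 42.81% over 688 sites in MCF10A and 30.87% over 455 in MDA-MB-468. The complex I mRNAs were also more thinly covered, with a median coverage of 18 in each library and no site at 200 or more, where 21.4% and 20% of the COX, ATP and CYTB sites lay. At a coverage of 10 to 19 the median ratio was 81.25% in the complex I mRNAs and 50% in the 5 mRNAs in MCF10A, and 88.89% and 55.4% in MDA-MB-468. At a coverage of 20 to 49 the medians were closer, 45.64% and 41.67% in MCF10A, and 25.93% and 22.5% in MDA-MB-468. At 50 to 199 they were 13.73% and 9.182% in MCF10A, and 9.783% and 3.922% in MDA-MB-468. In that class 92.3% of the complex I sites and 48.9% of the others were called in MCF10A. In MDA-MB-468 these shares were 84.9% and 17.5%. The ribosomal RNAs had levels of 7.926% and 2.183%, and nuclear exons 1.945% and 1.766%. With 1 library a line these levels were set side by side without a test.

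On the opposite strand of the same windows the order was different. Minus-strand sites had a level of 69.47% in COX1, 57.74% in COX2, 19.04% in ATP8/ATP6, 33.52% in COX3 and 11.64% in CYTB in MCF10A. In MDA-MB-468 they had 97.45%, 95.97%, 61.31%, 71.88% and 7.544%. The median coverage of these sites ran from 13 in COX1 to 98 in COX3 in MCF10A, and from 11 in COX2 to 63 in CYTB in MDA-MB-468.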

How the data were processed

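Whole-number counts of unconverted and converted reads per cytosine were deposited by the authors without normalization. Per the study's methods, reads were trimmed with Trim Galore, aligned to hg19 and called with MeRanTK. The submitters' processing notes also name Bismark. The deposited counts start at a coverage of 5. Summed counts were 76098976 in MCF10A against 90960018 in MDA-MB-468. Sites on exons of GENCODE release 44 (same strand) or the mitochondrial chromosome with a coverage of at least 10 were kept (60580227 and 42429746 counts). Fisher's exact tests, adjusted over all kept sites, replaced QNB, the method that the study names for differences and which was not installed here, and no structure filter was applied. Members and lists were chosen with earlier results of these data known. Named sites were the 2 highest in both lines per mRNA at a coverage of at least 20, the most deeply covered per mRNA, and the differing sites. Nuclear copies were found with BLAST+ 2.17.0, transcripts folded with ViennaRNA 2.7.2, and the rest computed in Python 3.11.15 with scipy 1.17.1. The code was tested on simulated counts. Islands join sites at most 30 nt apart. No molecular identifiers are described for the reads.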

Additional observations from a re-analysis of the deposited data

How the results depend on the processing

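No paired analysis was possible because each line has 1 library. The numbers of m5C sites in MCF10A and MDA-MB-468 (357 and 231) became 164 (23.7%) and 149 (26.7%) with the background taken from mitochondrial sites. At a coverage minimum of 50 they were 127 of 336 sites (37.8%) and 50 of 278 (18%). With sites that differ from nuclear copies by at least 5 bases they were 124 of 179 (69.3%) and 68 of 119 (57.1%). They were 233 of 443 (52.6%) and 144 of 334 (43.1%) with at least 2 such differences. A coverage minimum of 20 gave 124 of 405 (30.6%) in MDA-MB-468 and a minimum of 5 gave 351 of 757 (46.4%). Thinning the sites in both lines to the lower coverage gave 193 in MCF10A against 199 in the other library, which turned their order. The other settings of the background, the test and the adjustment stayed within 1.5 times. The 3 sites that differed between the libraries became 16 when tested against the mitochondrial odds ratio of 2.014. All 16 lay below that odds ratio and 0 above it, which need not mean a higher ratio in MDA-MB-468. That odds ratio was set for nuclear sites too, and no conclusion is drawn from the 16. The 3 became 0 with a difference of at least 10 percentage points. Testing only sites called in at least 1 line gave 37 (18 higher in MCF10A and 19 in MDA-MB-468). That selection used the same counts as the test, so the larger number is not independent of it. The share of all sites that differed under this selection is not given here, so no conclusion is drawn from the 37.

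The methylation levels depended on the summary, since deep sites weigh most. The mean of the site ratios in MCF10A was 14.63% in COX1, 10.24% in COX2, 34.34% in COX3 and 29.33% in CYTB. In MDA-MB-468 it was 9.941% in COX1, 6.24% in COX2, 70.54% in ATP8/ATP6, 22.36% in COX3 and 35.03% in CYTB. The median ratio was 4.651%, 4.478%, 92.86%, 42.31% and 20.87% in MCF10A from COX1 to CYTB, and 4.881%, 1.163%, 91.99%, 12.5% and 21.43% in MDA-MB-468. At a coverage minimum of 20, COX1 had 3.472% and 3.374%, ATP8/ATP6 81.08% and 21.49%, and CYTB 6.234% and 5.911% in MCF10A and MDA-MB-468, and COX3 had 9.64% in MDA-MB-468. At a minimum of 50, COX1 had 3.078% and 2.997%, COX3 12.98% and 4.046%, and CYTB 4.285% and 2.639%. No ATP8/ATP6 site was left. Sites kept in both lines gave 3.529% in COX1, 22.7% in COX3 and 5.405% in CYTB in MCF10A, and 7.757% in CYTB in MDA-MB-468. Without the 1% of sites with the highest coverage, COX3 had 26.23% and 11.2%, and CYTB in MCF10A had 9.381%. Without sites predicted to pair, CYTB had 10.16% and 15.15%. The cause was not tested. The pairing and nuclear-copy settings were chosen after seeing the data. The planned structure filter on a mitochondrial sequence in the files' numbering was not run.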
